A study of Mus musculus with 15 samples.

Results

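The neuronal pentraxin genes Nptx1 and Nptx2 and the neuronal pentraxin receptor gene Nptxr were followed in mouse cerebral cortex and striatum with and without Slc1a4, the gene of ASCT1, a carrier that exchanges serine and other neutral amino acids across the plasma membrane. These 3 genes were taken by symbol from the 26595 genes of the table, and each had 1 row. Nptxr was chosen by its normalized counts in striatum, which were higher in knockout than in wild type, so the striatal knockout values of all 3 genes are given as a description with no test. RNA was sequenced from male C57Bl/6 mice 5 months old, in 15 libraries. The knockout (KO) mice are labelled SLC1a4 -/- and gave 3 libraries of striatum and 4 of cerebral cortex. The wild-type (WT) mice gave 4 libraries of each tissue. The labels give no treatment, and they do not say which part of Slc1a4 was deleted or whether libraries came from separate animals, so each p-value speaks for the spread among these libraries, which may be technical.

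Nptx1 and Nptx2 encode secreted glycoproteins that end in a pentraxin domain and gather at excitatory synapses, where they bind the outer part of AMPA-type glutamate receptors and cluster them. Nptxr encodes a relative with a membrane anchor, and the proteins assemble with each other into mixed complexes. Nptx2 (also called Narp) is known as an activity-induced gene that acts on synapses onto parvalbumin interneurons. Excitatory neurons of the cortex project to the striatum, where most neurons are GABAergic projection neurons.

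The 3 genes lie on different chromosomes of the GRCm38 build (GENCODE M21 annotation). Nptx1 (ENSMUSG00000025582) lies at chr11:119538719-119547753 on the minus strand, with 5217 exonic bases. Nptx2 (ENSMUSG00000059991) lies at chr5:144545902-144557478 on the plus strand, with 2536 exonic bases. Nptxr (ENSMUSG00000022421) lies at chr15:79786351-79804766 on the minus strand, with 5170 exonic bases over 3 transcripts. The shared family mark is the pentraxin signature, a short run in the pentraxin domain of the pattern His-x-Cys-x-Ser/Thr-Trp-x-Ser/Thr. A search of each coding sequence found it 1 time per gene, in exon 4 of 5 in each. It is shown here because it is the stretch by which the 3 genes are recognised as one family. The coding strand is printed 5′ to 3′, and capitals mark the codons of the residues that the pattern fixes.

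Nptx1: CACatcTGTgtcACCTGGaccACC
Nptx2: CACatcTGCatcACCTGGaccACT
Nptxr: CATatcTGCatcTCCTGGactACA

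The signature occupies chr11:119543296-119543319 in Nptx1 (codons 314 to 321 of 432), chr5:144555339-144555362 in Nptx2 (codons 309 to 316 of 429) and chr15:79790380-79790403 in Nptxr (codons 374 to 381 of 493). Of its 24 bases, 21 were identical between Nptx1 and Nptx2, 20 between Nptx2 and Nptxr, and 18 between Nptx1 and Nptxr. Over the whole aligned translations the pairs kept that order: identity was 58.3% between Nptx1 and Nptx2, 55.4% between Nptx2 and Nptxr, and 51.3% between Nptx1 and Nptxr. The annotated coding sequence of Nptxr opens with a CTG codon, whereas those of Nptx1 and Nptx2 open with ATG.

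Libraries held 23260155 to 24006391 counted reads in KO striatum, 22990233 to 25697792 in WT striatum, 28114119 to 30276815 in KO cortex and 26791109 to 29342263 in WT cortex. Values are normalized counts, that is, reads divided by 1 factor per library. Slc1a4 averaged 271 ± 99.3 in KO striatum (SD, n = 3) and 1533 ± 217 in WT striatum (SD, n = 4), and 265 ± 28.7 in KO cortex and 1624 ± 127 in WT cortex (SD, n = 4 each). Its KO and WT libraries did not overlap in either tissue. The tissue labels fitted their markers in KO and in WT alike. In striatum over cortex, 14 of 14 markers of striatal projection neurons were called higher. Of 15 markers of cortical excitatory neurons, 14 were called lower. Among all genes tested, 18.4% were called higher and 19.5% lower in KO, and 24.9% higher and 25.7% lower in WT. These marker lists were chosen with earlier results of these data known.

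In knockout striatum the membrane-anchored member Nptxr and the secreted member Nptx1 stood at 2.03 and 2.62 times their wild-type level, while Nptx2 stood at 1.28 times. In cortex none of the 3 differed detectably between the genotypes. In both genotypes all 3 transcripts were far lower in striatum than in cortex, so each gene kept the order cortex above striatum. Within the cortex the order of KO and WT is within the spread, and within the striatum KO averaged above WT for each gene.

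Nptxr had 7539, 6322 and 5409 normalized counts in KO striatum libraries 2, 3 and 4, against 2501, 2741, 3360 and 4225 in WT striatum libraries 5, 6, 7 and 8. Every KO library lay above every WT library. The lowest KO library, number 4, was nearest to the highest WT library, number 8. The means were 6424 ± 1069 in KO striatum (SD, n = 3) and 3207 ± 769 in WT striatum (SD, n = 4), a log2 fold change of 1.02 (SE 0.16). A gene was tested where 3 or more libraries reached a normalized count of 10, which left 17030 genes and kept all 3 members. Of these, 290 (1.7%) had a larger positive striatal log2 fold change than Nptxr.

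Nptx1 had 4686, 2442 and 4176 normalized counts in KO striatum libraries 2, 3 and 4, against 811, 1445, 1757 and 1789 in WT striatum libraries 5 to 8. The groups did not overlap, but KO library 3 stood nearer to the highest WT library than to the other KO libraries. The means were 3768 ± 1176 in KO striatum (SD, n = 3) and 1450 ± 454 in WT striatum (SD, n = 4), with a log2 fold change of 1.39 (SE 0.25). It was exceeded by 106 genes (0.622%). The relative spread of Nptx1 was the widest of the 3 genes in this tissue, with a coefficient of variation of 31.2% in KO and 31.3% in WT, against 16.6% and 24% for Nptxr, and 18% and 8.95% for Nptx2.

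Nptx2 had 1043, 725 and 880 normalized counts in KO striatum libraries 2, 3 and 4, against 684, 751, 699 and 603 in WT striatum libraries 5 to 8. Here the groups overlapped, since KO library 3 lay below WT library 6. Nptx2 averaged 883 ± 159 in KO striatum (SD, n = 3) and 684 ± 61.2 in WT striatum (SD, n = 4), a log2 fold change of 0.36 (SE 0.12), and 2008 genes (11.8%) had a larger one. Over all genes tested the median striatal log2 fold change was 0.008. In this comparison 3.96% of all genes tested were higher in KO with no overlap of the groups, and 0.0763% passed limma's test at an adjusted p below 0.05 in either direction. Since the choice of the genes used this comparison, nothing is read from those shares.

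**Figure D1:**
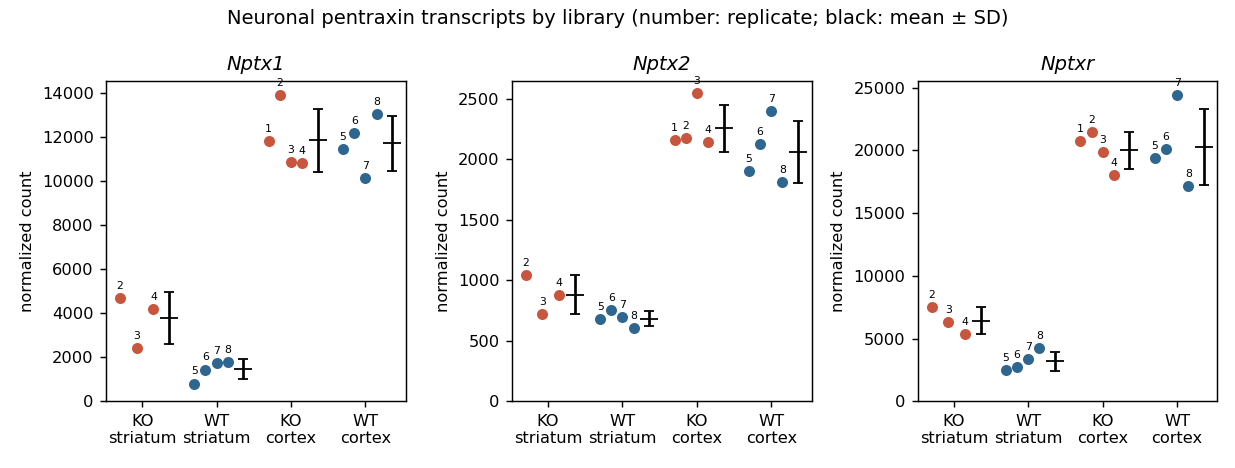
Normalized counts of Nptx1, Nptx2 and Nptxr (y axes, from 0) in each library of KO striatum, WT striatum, KO cortex and WT cortex (x axes). Small numbers are replicate numbers and black bars are the mean ± SD; the KO striatum libraries of Nptxr (5409 to 7539) and Nptx1 (2442 to 4686) lie above the WT striatum libraries, and cortex libraries lie far above both.

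In cortex, Nptxr had 20731, 21450, 19857 and 18020 normalized counts in the KO libraries 1 to 4, against 19388, 20080, 24431 and 17173 in the WT libraries 5 to 8. The KO values fell inside the WT range. Nptx1 had 11819, 13867, 10853 and 10788 in KO cortex, against 11434, 12186, 10109 and 13035 in WT cortex, and Nptx2 had 2159, 2179, 2549 and 2145 in KO cortex, against 1904, 2128, 2395 and 1812 in WT cortex. For each gene the KO and WT cortex libraries overlapped. The log2 fold changes were 0.02 for Nptx1 (SE 0.23, 95% interval -0.47 to 0.51), 0.14 for Nptx2 (SE 0.11, interval -0.10 to 0.38) and -0.01 for Nptxr (SE 0.15, interval -0.33 to 0.31). The limma adjusted p was 1 for each. Of all genes tested in cortex, 1 (0.00587%) passed, and it was Slc1a4 itself (limma adjusted p = 1.2e-05). A count of 0 among the 3 members sits with that background. On the fold scale the intervals run from 0.720 to 1.42 for Nptx1, from 0.931 to 1.30 for Nptx2 and from 0.795 to 1.24 for Nptxr, which are the bounds of each gene taken singly and not limits of detection in a test over all genes.

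The difference between the striatal and the cortical knockout effect was 1.37 on the log2 scale for Nptx1 (SE 0.34), 0.22 for Nptx2 (SE 0.17) and 1.03 for Nptxr (SE 0.22). It holds the comparison by which Nptxr was chosen and is a description.

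**Figure D2:**
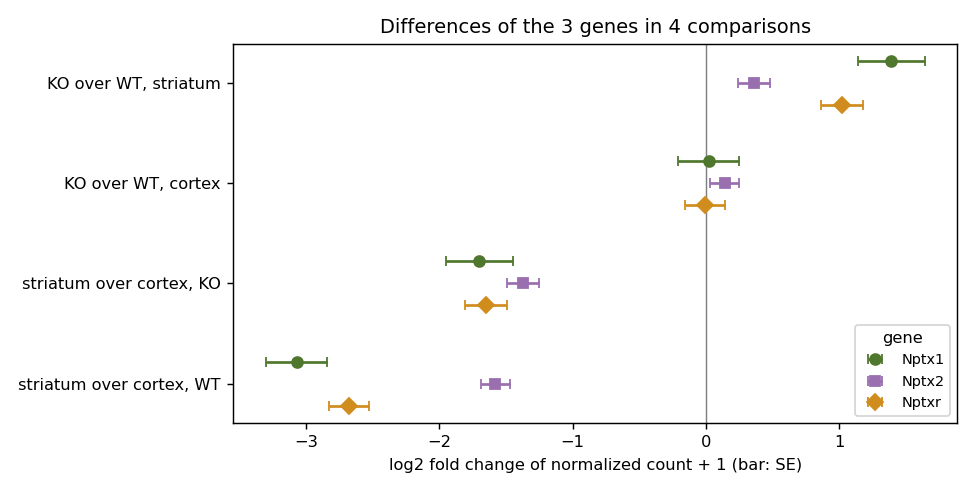
Log2 fold changes of Nptx1, Nptx2 and Nptxr (x axis, points with SE bars) for KO over WT in striatum and in cortex, and for striatum over cortex in KO and in WT mice (y axis). The cortical KO values lie between -0.01 and 0.14, while the striatal KO values reach 1.39 and the tissue differences in WT reach -3.07.

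Between the tissues, Nptx1 in KO mice stood at 3768 ± 1176 normalized counts in striatum (SD, n = 3) and 11832 ± 1436 in cortex (SD, n = 4), so that striatum held 31.8% of the cortical level. In WT mice it stood at 1450 ± 454 in striatum and 11691 ± 1241 in cortex (SD, n = 4 each), or 12.4%. Nptx1 fell in striatum relative to cortex by 1.70 on the log2 scale in KO (SE 0.25, limma adjusted p = 0.00011) and by 3.07 in WT (SE 0.23, limma adjusted p = 1.1e-07). In WT, 153 of the 17030 genes (0.898%) were lower in striatum by more than Nptx1.

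Nptx2 averaged 883 ± 159 in KO striatum (SD, n = 3) and 2258 ± 194 in KO cortex (SD, n = 4), which is 39.1% of the cortical level. It averaged 684 ± 61.2 in WT striatum and 2060 ± 260 in WT cortex (SD, n = 4 each), or 33.2%. Striatum over cortex, the log2 fold change of Nptx2 was -1.37 in KO mice (SE 0.12, limma adjusted p = 1.1e-06) and -1.58 in WT mice (SE 0.11, limma adjusted p = 6.1e-08). Nptxr, whose striatal libraries entered the choice, averaged 6424 ± 1069 in KO striatum (SD, n = 3) and 20014 ± 1481 in KO cortex (SD, n = 4), with a log2 difference of -1.65 (SE 0.16) and 32.1% of the cortical level. In WT it averaged 3207 ± 769 in striatum and 20268 ± 3040 in cortex (SD, n = 4 each), with a log2 difference of -2.68 (SE 0.15) and 15.8%. No striatum library reached the lowest cortex library of its genotype for any of the 3 genes.

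The tissue contrast is broad, and the members' calls stand against a high background. Of all genes tested, 19.5% were called lower and 18.4% higher in striatum than in cortex in KO, and 25.7% were called lower and 24.9% higher in WT. Groups that did not overlap, with striatum lower, made up 21.4% of genes in KO and 24.3% in WT. The KO and WT striatum libraries serve in these comparisons and in the knockout comparison alike, so the sets of values are not independent.

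Per kilobase of exon, the unit in which levels of different genes can be compared, the receptor transcript was the most abundant of the 3 in every library. Nptxr made up 54.1% of the summed count per kilobase in KO striatum, 52.8% in WT striatum, 55.1% in KO cortex and 56.0% in WT cortex. The 2 secreted members divided the rest differently in the WT striatum. There Nptx2 held 23.8% (17.0 to 29.7% over the 4 libraries) and Nptx1 held 23.4%. In KO striatum the share of Nptx2 was 15% (14.5 to 15.8% over the 3 libraries), and that of Nptx1 was 30.9%. In cortex Nptx2 held 12.7% in KO and 11.6% in WT. The ratio of Nptx1 to Nptx2 per kilobase was 1.64 to 2.31 in KO striatum and 0.577 to 1.44 in WT striatum, with no overlap. In cortex it was 2.07 to 3.09 in KO and 2.05 to 3.50 in WT. These ratios rest on the same striatal values as the choice of the genes and carry no test.

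**Figure D3:**
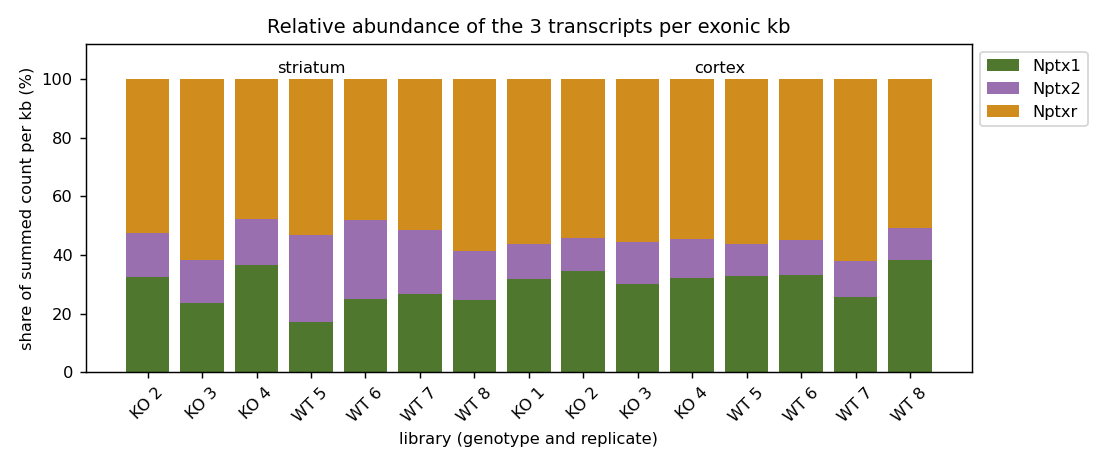
Share of Nptx1, Nptx2 and Nptxr in their summed normalized count per exonic kilobase (y axis, percent, stacked to 100) in each library, striatum left and cortex right (x axis). Nptx2 takes 17.0 to 29.7% in WT striatum libraries and 14.5 to 15.8% in KO striatum libraries.

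The annotation places part of Nptxr under a second gene. Npcd (ENSMUSG00000089837), which joins exons of the neighbouring Cbx6 to exons of Nptxr on the same strand, shares 890 exonic bases with Nptxr, 17.2% of its exonic length. Npcd was not among the 26595 genes with values here, so it could not be analysed. Reads in the shared exons could be assigned to either gene or discarded, so the level of Nptxr is uncertain. The share of reads that fall in those exons was not measured. Cbx6, a chromatin protein gene at the other end of Npcd that was looked at after values were seen, averaged 8025 ± 423 in KO striatum (SD, n = 3) and 9387 ± 882 in WT striatum (SD, n = 4). Its log2 fold change was -0.22 (SE 0.08, limma adjusted p = 0.24), with the mean of KO striatum below that of WT striatum. Nptx1 and Nptx2 overlap no other annotated exon.

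Markers of cortical excitatory neurons were measured beside the members. Of 15 such markers, 12 had a KO over WT striatal log2 fold change above 0 and 3 had one below 0, with a median of 0.90; 1 passed limma's test and 11 had an unadjusted p below 0.05, a level reached by 15.3% of all genes tested in this comparison. That one was Neurod2, a transcription factor of excitatory neurons, at 309 ± 151 in KO striatum (SD, n = 3) and 62.3 ± 34.6 in WT striatum (SD, n = 4), a log2 fold change of 2.30 (SE 0.38, limma adjusted p = 0.03). This call was lost in 13 of 29 alternatives: the adjusted p was 0.68 when only the striatum groups were fitted, 0.12 with voom, 0.12 without KO striatum replicate 2, 0.058 and 0.10 without WT striatum replicates 5 and 6, and 0.055 to 0.064 without any 1 cortex library. Its log2 fold change ranged from 1.85 to 2.81 over the 29. Slc17a7, which encodes the vesicular glutamate transporter VGLUT1, averaged 6471 ± 2418 in KO striatum and 2167 ± 1147 in WT striatum, a log2 fold change of 1.64 (SE 0.32, limma adjusted p = 0.09). The summed level of the 15 markers was 17049, 11196 and 18532 in KO striatum libraries 2, 3 and 4, against 7566, 8251, 9507 and 12084 in WT striatum libraries 5 to 8. The groups overlapped, since KO library 3 lay below WT library 8. In cortex the sum was 69411 to 71408 in KO and 67013 to 75407 in WT. None of these markers was at 0 in any striatum library. The part of these cells in the pentraxin values was not tested. In such bulk tissue, a difference in the number of cells of a type and a difference in RNA per cell cannot be told apart.

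By Slc17a7, KO library 3 (3690 normalized counts) and WT library 8 (3705) were nearly level. Nptxr stood at 6322 in that KO library and 4225 in that WT library, Nptx1 at 2442 and 1789, and Nptx2 at 725 and 603. These are single libraries, picked for their marker level after values were seen, and their Nptxr values entered its choice. They were not alike in other markers. The mean log2 deviation of the 15 cortical excitatory markers from their striatum averages was taken as a score. This score was 0.24 in KO library 3 and -0.02 in WT library 8. The summed level of the same markers had the other order, at 11196 in KO library 3 and 12084 in WT library 8. The pair was therefore level by Slc17a7 and not matched for cortical markers as a set. The markers of thalamus, septum, pallidum and hypothalamus summed to 16592 in KO library 3 and 42560 in WT library 8. The part of cell content in the pentraxin values was not tested. As a share of the WT gap between cortex and striatum, the KO minus WT difference in striatum was 22.6% for Nptx1, 18.9% for Nptxr and 14.4% for Nptx2. The same share ran from -14.3% for Lamp5 to 23.2% for Neurod6 over the 14 cortical markers whose WT cortex mean was more than 2 times the WT striatum mean, with a median of 7.89%. Rorb, below that ratio, had -9.27%, and the median over all 15 was 7.45%. Slc17a7 had 13.3% and Neurod2 13.9%. Both terms of this share hold the WT striatum libraries, and the KO minus WT term is the difference by which Nptxr was chosen. The shares are therefore a description with no test.

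The 14 markers of striatal projection neurons all had striatal log2 fold changes below 0, with a median of -0.80, and none passed limma's test; 8 had an unadjusted p below 0.05, against the 15.3% of all genes given above. Their summed level was 140049, 136645 and 66275 in KO striatum libraries 2 to 4, against 267854, 184920, 228409 and 124238 in WT striatum libraries 5 to 8. KO library 4 and WT library 8, the lowest of their groups, also had the highest sums of markers of thalamus, septum, pallidum and hypothalamus, at 59425 and 42560. The other KO libraries had neighbour sums of 11609 and 16592, and the other WT libraries had 14397 to 18087. Choroid plexus markers summed to 92370 in KO library 4 and 150115 in WT library 5, while the remaining libraries had 3103 and 7088 in KO and 1983 to 6691 in WT. Neither list had a gene past limma's test between KO and WT striatum, with 3 neighbour markers and 0 choroid markers at an unadjusted p below 0.05. The lists of astrocytes, oligodendrocytes, microglia and endothelial cells, of 6 markers each, also had none past limma's test, with 1, 0, 3 and 1 at an unadjusted p below 0.05. Their part in the pentraxin values was not tested. Over 29 alternatives, which include leaving out KO library 4 with WT library 5 or with WT library 8, the striatal log2 fold changes of the members, which remain a description of the comparison that chose Nptxr, ranged from 0.90 to 1.28 for Nptxr, 1.03 to 1.67 for Nptx1 and 0.23 to 0.49 for Nptx2.

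**Figure D4:**
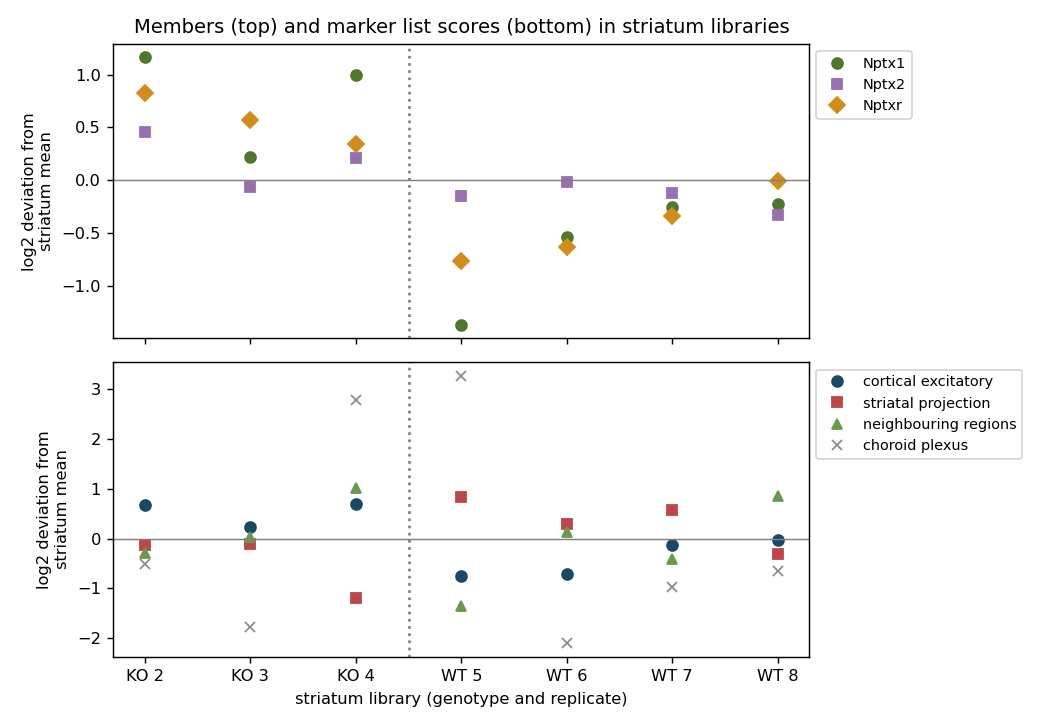
Log2 deviation from the mean of the 7 striatum libraries (y axes) for Nptx1, Nptx2 and Nptxr (top) and for 4 marker lists, as the mean over each list's genes (bottom), in KO libraries 2 to 4 and WT libraries 5 to 8 (x axis). The cortical excitatory score is 0.24 to 0.69 in KO and -0.76 to -0.02 in WT libraries.

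Genes that act with the pentraxins were examined as lists of 52 genes in all, 47 of which entered the test. In striatum none passed limma's test between KO and WT, and edgeR called 1 and DESeq2 2. An unadjusted p below 0.05 was reached by 12 of them, and by 15.3% of all genes tested. In cortex 0 passed limma's test, and edgeR and DESeq2 called 0; 3 had an unadjusted p below 0.05, as had 2.51% of all genes. The tissue comparisons called 28 of the 47 in KO, where 37.9% of all genes were called, and 29 in WT, where 50.5% were called.

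The AMPA receptor subunits, to which the pentraxins bind, did not pass the test between genotypes in striatum. Gria1 averaged 12611 ± 2540 in KO striatum (SD, n = 3) and 11398 ± 1403 in WT striatum (SD, n = 4). Gria2 averaged 16217 ± 5457 in KO and 18097 ± 2197 in WT, Gria3 averaged 4835 ± 278 in KO and 5098 ± 181 in WT, and Gria4 averaged 3426 ± 513 in KO and 3432 ± 515 in WT. KO and WT libraries overlapped for all 4 subunits, and the list's median log2 fold change was -0.04. Between the tissues the subunits split in WT: Gria3 fell in striatum (5098 ± 181, against 8130 ± 211 in cortex; log2 -0.67, SE 0.07, limma adjusted p = 2.7e-06), and Gria1 rose (11398 ± 1403, against 8303 ± 307; log2 0.45, SE 0.13, limma adjusted p = 0.0095). In KO, Gria3 and Gria2 fell in striatum relative to cortex and Gria1 and Gria4 did not pass. For Gria2 the groups overlapped, at 10465 to 21322 in KO striatum and 20522 to 23938 in KO cortex.

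Among 5 genes for release and processing, none passed between KO and WT striatum, and the list's median was -0.03. Adam17, whose protease cleaves the receptor from the cell surface, averaged 606 ± 38.2 in KO striatum and 630 ± 38.0 in WT striatum. Gpc4, an astrocyte glypican that prompts neurons to release Nptx1, averaged 184 ± 25.7 in KO striatum and 120 ± 40.9 in WT striatum, a log2 fold change of 0.66 (SE 0.20, limma adjusted p = 0.18). Ptprd, the receptor phosphatase through which that glypican acts, averaged 8296 ± 1474 in KO and 8439 ± 771 in WT. Rcn2, a calcium-binding reticulum protein that binds neuronal pentraxins, averaged 3979 ± 297 in KO and 4150 ± 329 in WT. In the WT tissue comparison Adam17 and Rcn2 rose in striatum, by 0.43 (SE 0.07) and 0.40 (SE 0.07) on the log2 scale with limma adjusted p of 7.6e-05 and 0.00046. Ptprd and Gpc4 fell there, by 0.30 (SE 0.10, limma adjusted p = 0.024) and by 0.46 (SE 0.18, limma adjusted p just under the threshold, with the groups overlapping). Gpc6, a second glypican of astrocytes, averaged 434 ± 34.5 in KO striatum and 442 ± 27.3 in WT striatum, and did not pass in either tissue comparison.

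Of 11 genes of C1q-domain proteins and complement C1q, 10 were tested, 5 of them with a log2 fold change above 0 and 5 below 0 in KO striatum. The median was 0.43 and none passed limma's test. An unadjusted limma p below 0.05 was reached by 6 of the 10, and by 15.3% of all genes tested. C1ql3, a synaptic organiser, had 1306, 601 and 658 normalized counts in KO striatum, against 140, 322, 390 and 707 in WT striatum, with overlap (log2 1.26, SE 0.38, limma adjusted p = 0.18). Cbln2, another synaptic organiser, averaged 565 ± 258 in KO and 268 ± 121 in WT (log2 1.07, SE 0.32, limma adjusted p = 0.18). Both were also cortex-rich: in WT they fell in striatum by 2.81 (C1ql3, SE 0.36, limma adjusted p = 1.6e-05) and 2.12 (Cbln2, SE 0.30, limma adjusted p = 4.4e-05) on the log2 scale. The complement genes lay on the other side of 0 in KO striatum, and were named after their values were seen. C1qc averaged 916 ± 69.1 in KO and 1061 ± 57.9 in WT (log2 -0.21, SE 0.08, limma adjusted p = 0.26). C1qa averaged 985 ± 121 in KO and 1145 ± 42.2 in WT, and C1qb 1154 ± 130 in KO and 1288 ± 55.2 in WT. In WT all 3 rose in striatum relative to cortex, with log2 fold changes of 0.41 to 0.47 and limma adjusted p of 0.00029 to 0.0011. C1ql3 shares 61.0% of its exonic length with an opposite-strand transcript, and the strand setting of the counting is not given in the sources used here, so its level is uncertain.

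The activity-regulated genes, a group to which Nptx2 is usually assigned, were on both sides of 0 in KO striatum. Of 14, 5 had a striatal log2 fold change above 0, the median was -0.04 and 0 passed limma's test, with 2 at an unadjusted p below 0.05. Homer1, which encodes a scaffold of the postsynaptic density, averaged 4216 ± 1106 in KO striatum and 6063 ± 1602 in WT striatum (log2 -0.52, SE 0.23, limma adjusted p = 0.30). Bdnf, the gene of a neurotrophin, had the smallest p of the list, with 463, 291 and 368 normalized counts in KO striatum, against 23.9, 101, 127 and 156 in WT striatum. Every KO library was above every WT library (log2 2.13, SE 0.43), as was so for 3.96% of all genes tested. For Bdnf limma's adjusted p was 0.098, and an opposite-strand transcript covers 14.4% of its exonic length. In cortex all 14 genes had a KO over WT log2 fold change above 0, with a median of 0.25, but 0 passed limma's test and 0 had an unadjusted p below 0.05. The list lay lower in striatum, with 10 of 14 called lower in KO and in WT, at medians of -1.19 and -1.01. Among all genes tested, 19.5% were called lower in striatum in KO and 25.7% in WT.

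Perineuronal net genes, whose matrix holds Nptx2 around parvalbumin cells, had a striatal median of -0.06 over 9 genes, and none passed. Has2, a hyaluronan synthase, had low counts, 14.6 ± 3.6 in KO striatum and 4.87 ± 1.87 in WT striatum (log2 1.44, SE 0.42, limma adjusted p = 0.18). Hapln1, a link protein of the net, averaged 565 ± 119 in KO striatum and 739 ± 47.1 in WT striatum (log2 -0.41, SE 0.12, limma adjusted p = 0.18). Of the 5 parvalbumin interneuron genes none passed in striatum; Pvalb itself averaged 1449 ± 774 in KO and 2035 ± 373 in WT (log2 -0.63, SE 0.27, limma adjusted p = 0.29). The pentraxins of the immune system gave no comparison: Ptx3, Ptx4 and Crp were below the filter and Apcs had no value here.

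**Figure D5:**
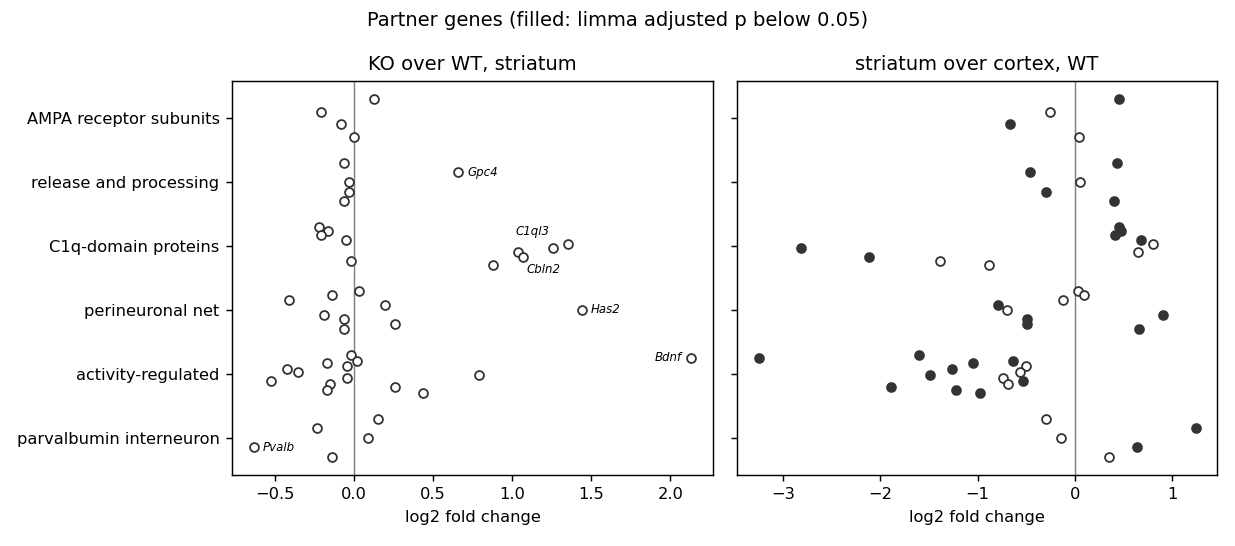
Log2 fold changes (x axes) of the tested partner genes by list (y axis), for KO over WT in striatum (left) and striatum over cortex in WT (right); filled points passed limma's test at an adjusted p below 0.05. No point is filled on the left, where Bdnf lies farthest out at 2.13, and 29 are filled on the right.

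The genes most like each member were ranked by Pearson correlation of log2 normalized counts over all 15 libraries, among 13445 genes with a mean of at least 20. As the points fall into 2 tissues, these coefficients hold the tissue gap and are a description. Nptxr was most like Slc30a3 (0.996), which encodes the zinc transporter of synaptic vesicles, then Myh7b (0.990) and Mapk11 (0.988). Nptx1 was most like Neurod2 (0.991), Prdm8 (0.989) and Slc17a7 (0.989). Nptx2 was most like Sv2b (0.989), a synaptic vesicle protein gene, Enc1 (0.987) and Atad2 (0.986). Over the same libraries the coefficient was 0.974 between Nptx1 and Nptxr, 0.960 between Nptx2 and Nptxr, and 0.940 between Nptx1 and Nptx2.

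With the 4 group means removed, the members parted. The coefficient of the remaining deviations was 0.445 between Nptx1 and Nptxr, 0.159 between Nptx2 and Nptxr and 0.157 between Nptx1 and Nptx2. Slc30a3 again stood first for Nptxr (0.903), followed by Ube2s (0.862) and Gnai2 (0.836). For Nptx1 the highest were Gpr22 (0.914), Clip2 (0.909) and Arhgap15 (0.905), and for Nptx2 Sar1a (0.867), Mad2l1 (0.851) and Spi1 (0.844). With 13445 genes ranked over 15 libraries, the highest coefficients can be large by selection alone. No relation between the genes is read from them. Slc30a3 averaged 298 ± 134 in KO striatum (SD, n = 3) and 78.5 ± 47.2 in WT striatum (SD, n = 4), and 2305 ± 235 in KO cortex and 2436 ± 294 in WT cortex (SD, n = 4 each). It had the tissue order and the striatal direction of Nptxr. Because it was picked for likeness to Nptxr over these same libraries, this adds no separate support.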

How the data were processed

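The deposited signal values are the authors' normalized counts: each library's reads over its own size factor. Tools listed in the submitters' processing notes are TopHat2 2.1.1, HTSeq 0.6.0, cutadapt 1.1, FastQC 0.11.5 and DESeq2 1.12.4, with build GRCm38; strand setting and annotation release are not given in the sources used here. From the deposited values, 100% came out as whole reads within 0.001. Depth was 22990233 to 30276815 counted reads per library.

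The test was limma 3.58.1 under R 4.3.3, applied to log2(normalized count + 1) with a variance trend, 4 group means over 15 libraries (11 residual degrees of freedom) and Benjamini-Hochberg adjustment over 17030 genes; log2 fold changes are on that scale. edgeR 4.0.16 and DESeq2 1.42.0 were run on the recovered reads as alternatives. The fit was also run on simulated counts with known changes in KO cortex only. That run does not cover the striatal comparison, and no result here rests on it. Levels per kilobase used the union of exons. Python 3.11.15 and matplotlib 3.10.9 drew the figures. Marker and partner lists, and the rule for named genes (all of short lists, the smallest p of longer ones, and the 3 most alike genes), like the members themselves, were chosen with earlier results of these data known.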

Additional observations from a re-analysis of the deposited data

Results flagged for a closer look

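Nptx2 in KO cortex was marked because 1 library lay far from the rest: KO cortex library 3 had 2549 normalized counts, against 2145 to 2179 in the other 3. Of 9 groups of 4 libraries checked, this was the 1 marked, and chance marks about 1 in 20. The WT cortex libraries ran from 1812 to 2395. Without that library the KO over WT log2 fold change of Nptx2 in cortex was 0.08, against 0.14 with it.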

How the results depend on the processing

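The 15 member values in the 5 comparisons stayed on their side of the threshold, or moved by less than the replicate spread, in 29 or 30 alternatives each (other pseudocounts, filters, scalings, edgeR, DESeq2, voom, sample weights, only the groups compared, replicate block, libraries left out), with 1 exception: the difference of the Nptxr knockout effects was 1.03, and 1.29 without KO striatum 4 and WT striatum 8. Outside cortex every member value kept its sign; KO over WT in cortex ranged from -0.06 to 0.07 for Nptx1, 0.08 to 0.21 for Nptx2 and -0.09 to 0.08 for Nptxr. The highest adjusted p of the Nptx1 and Nptx2 tissue comparisons was 0.0009. The count of partner genes called between KO and WT striatum was 0, but 1 in edgeR (Bdnf, adjusted p = 0.046), 2 in DESeq2 (Bdnf and Cbln2), 1 with sample weights (Bdnf), 3 without KO striatum 4 and WT striatum 5 (Bdnf, Pvalb and Gpc4) and 3 without KO striatum 4 and WT striatum 8 (Bdnf, Pvalb and C1ql3). Leaving out 1 library gave 0 to 2: 2 without KO striatum replicate 4 (Bdnf and Pvalb), 1 without WT striatum replicate 5 (Bdnf) and 2 without WT striatum replicate 8 (Bdnf and C1ql3). The cause was not tested. By Spearman correlation, 0 of the 9 most alike genes were shared. Over all genes, striatal knockout calls numbered 13 and ranged from 0 to 861, so the share of 0.0763% depends on the setting. Same-numbered striatum and cortex libraries had correlated deviations of 0.00369 to 0.142, all positive, against -0.168 to 0.127 for other numbers. KO striatum 3 and WT striatum 7 correlated best with another number, and every other striatum library with its own. The labels do not state pairs and these values do not settle it. The main fit took the libraries as unpaired. With the replicate block, Nptx1 in striatum over cortex was -3.07 in WT and -1.70 in KO, and the partner calls between tissues were 26 in KO and 30 in WT. No member had under 603 normalized counts in a library; the number of striatum libraries (3 and 4) limits the precision.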
